A study of Mus musculus with 2 samples.

Results

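Ubiquitin is attached to proteins by an activating enzyme (E1), a conjugating enzyme (E2) and a ligase (E3). Most Ube2 genes encode E2 enzymes, the cullin (Cul) genes encode scaffolds of a large class of E3 ligases, and the F-box genes (Fbxo, Fbxl and Fbxw) encode the substrate receptors of the CUL1-based SCF ligases, named by their second domain: leucine-rich repeats in Fbxl, WD40 repeats in Fbxw and other or unknown domains in Fbxo. All mouse protein-coding genes with these symbols were taken from the GENCODE M21 basic annotation, which gave 122 of 21938 genes: 37 Ube2, 36 Fbxo, 18 Fbxl, 23 Fbxw and 8 Cul genes. The rule uses the symbol alone, and it was set with earlier results of these data known.

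YY1 (Yin Yang 1) is a zinc-finger transcription factor, and its binding sites were listed from 1 ChIP-seq library of muscle stem cells (MuSCs). In ChIP-seq an antibody pulls down a protein with the DNA it holds, and the DNA is then sequenced. According to the study's methods, the MuSCs were sorted by the YFP reporter from hindlimb muscles of Ctrl mice (Pax7 CreERT2/R26YFP; Yy1+/+; mdx), which carry the Pax7-driven, tamoxifen-inducible Cre but no floxed Yy1 allele, and cells of several mice were pooled. The mdx strain (C57BL/10 ScSn DMDmdx) lacks dystrophin and models Duchenne muscular dystrophy, and tamoxifen was given to Ctrl mice as well as to mutants. The age of the mice used for ChIP was not given in the sources used here. The labels differ from the methods: they describe cultured MuSCs, the series text calls them wild type, and the background library is input in the labels but IgG in the methods. That background library was used only through the authors' peak calls. Because the cells were pooled into 1 library, variation between animals could not be measured, and no groups were compared. A peak list measures no expression, and the cell type therefore could not be checked against marker genes.

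The list holds 4681 peaks, and the depth computed from it was 13357713 fragments. This is close to the number of uniquely mapping reads in the study's reporting summary. Whether a unit called a fragment here is a read or a read pair could not be told. Between 8 and 394 fragments stood at a peak summit, with a median of 14, so that most single peaks rest on few fragments. A gene was called bound when a peak summit, the highest point of a peak, lay within 1000 bp of any of its transcript start sites. By this rule 39 of the 122 genes were bound (32.0%, 95% exact Clopper-Pearson interval 23.8 to 41.0), against 4119 of 21938 protein-coding genes, or 18.8%. All intervals given here cover counting error only. The 39 genes had 39 different strongest peaks. Among genes with a promoter peak of at least 5-fold enrichment, the members numbered 27 (22.1%), and the share over all protein-coding genes was 11.1%.

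YY1 is best known for binding the word AANATGGC, with N any base, whose ATGGC core can lie across the start codon of a gene. The word was found within 100 bp of the strongest summit on either strand at 5 of the 39 bound genes (12.8%), against 8.11% of all bound protein-coding genes (334 of 4119). These 5 sites are shown because they hold the full word near the summit. Each run is 30 bases of GRCm38 (mm10), written 5′ to 3′ on the strand of the word, with the word in capitals:
Fbxo42, chr4:141148004-141148033, plus strand: ttgagtggaggAAGATGGCggctccgggcg
Ube2j2, chr4:155943836-155943865, minus strand: gctcagcctccAAGATGGCcgctccgggga
Ube2k, chr5:65537277-65537306, minus strand: gcccggccaccAAAATGGCgccgggtccgc
Ube2l3, chr16:17201446-17201475, minus strand: gcaccagatccAAGATGGCggccagcagga
Ube2q2, chr9:55149464-55149493, minus strand: agcgcggctggAAAATGGCgaggagcgcga

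The third base of the word, left free in the search, was G at 3 sites and A at 2. Distances from the summit are taken from the middle of the word. At Ube2l3 the word read in the direction of the gene and covered the summit, its middle lying 1 bp away. Its ATG was the annotated start codon of the protein. At Fbxo42 it also read in the direction of the gene, 18 bp from the summit. At Ube2j2, Ube2q2 and Ube2k it lay on the opposite strand, 31, 29 and 75 bp from the summit. Over all bound protein-coding genes with the word, 198 of 334 (59.3%) had it in the sense direction and 88 (26.3%) at an annotated start codon, whereas 2 of the 5 member sites were sense and 1 was at a start codon. The core ATGGC alone, which every AANATGGC site contains, was found near 16 of the 39 summits (41.0%), compared with 31.1% of all bound protein-coding genes. A match of letters is a description of the reference sequence and shows no contact with the protein.

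Most of the strongest member peaks had no such word. The 3 strongest member summits whose surroundings overlap no annotated exon are shown as 121 bases centred on the summit, in GRCm38 and in the direction of the gene. They have no capitals because no AANATGGC or ATGGC was found in them on either strand:
Fbxw7, chr3:84814516-84814636, plus strand: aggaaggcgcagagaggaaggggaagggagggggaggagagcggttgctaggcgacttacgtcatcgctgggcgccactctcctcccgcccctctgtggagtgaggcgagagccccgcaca
Ube2n, chr10:95514939-95515059, plus strand: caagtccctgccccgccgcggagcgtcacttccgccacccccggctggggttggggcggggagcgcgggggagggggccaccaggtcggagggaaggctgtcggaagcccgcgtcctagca
Cul3, chr1:80339973-80340093, minus strand: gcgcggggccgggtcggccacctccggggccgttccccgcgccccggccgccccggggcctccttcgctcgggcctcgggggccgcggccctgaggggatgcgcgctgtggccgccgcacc

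All 3 runs are rich in G and C. For this reason the base composition of the start sites was set beside the counts. A start was called CpG-rich when the sequence within 250 bp of it had at least 50% G and C and an observed over expected CpG ratio of at least 0.6. All 39 bound members were CpG-rich, which made 39 of 95 CpG-rich members (41.1%, 31.1 to 51.6) against 33.6% of CpG-rich protein-coding genes. Of the 27 CpG-poor members, 0 were bound (upper limit 12.8%), and the share over CpG-poor protein-coding genes was 1.6%. Within the CpG-rich class the members thus stood closer to the background than in the count over all starts, and the interval of their share includes the background of 33.6%. The part that base composition has in the count was not tested further. On chromosome X, 0 of 4 members (Cul4b, Ube2a, Ube2dnl1 and Ube2dnl2) were bound, and the share over all X-linked protein-coding genes was 2.32% (22 of 948).

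By family, bound Ube2 genes numbered 18 of 37 (48.6%, 31.9 to 65.6), and bound F-box genes of the 3 families together 18 of 77 (23.4%, 14.5 to 34.4), beside 18.8% of all protein-coding genes. Among the F-box genes the shares were 11 of 36 Fbxo (30.6%, 16.3 to 48.1), 4 of 18 Fbxl (22.2%, 6.41 to 47.6) and 3 of 23 Fbxw genes (13.0%, 2.78 to 33.6). Bound cullins numbered 3 of 8 (37.5%, 8.52 to 75.5). The intervals of all 5 families overlap each other, and no test between families was made. With CpG-rich starts only, the shares were 56.2% of 32 Ube2, 33.3% of 33 Fbxo, 25.0% of 16 Fbxl, 37.5% of 8 Fbxw and 3 of 6 Cul genes, beside 33.6% of CpG-rich protein-coding genes. The interval of the Ube2 share was 37.7 to 73.6, and the intervals of the other families include 33.6%.

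**Figure D1:**
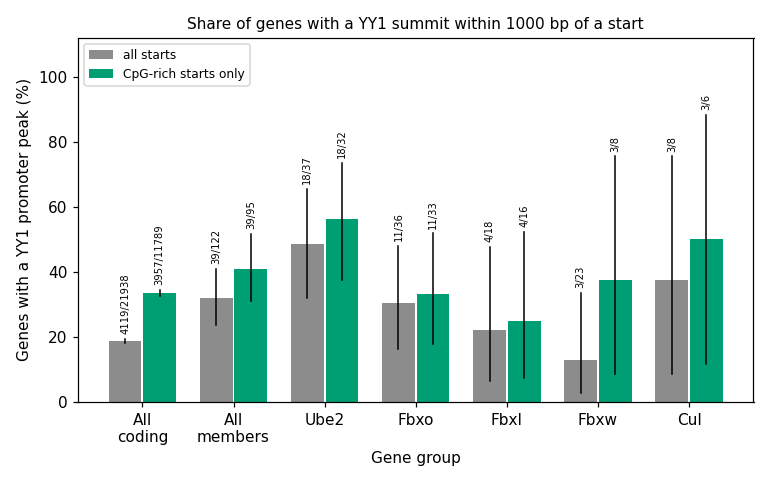
Bars give the share of genes with a YY1 summit within 1000 bp of a transcript start (y axis, percent) for all protein-coding genes, all members and each family (x axis), over all starts (grey) and CpG-rich starts only (green), with 95% exact binomial intervals as lines and bound over total genes as labels. The Ube2 bars stand at 48.6% and 56.2%, above 18.8% and 33.6% for all protein-coding genes, and the intervals of the 5 families overlap.

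Fold enrichment, the ratio of fragments at the summit to the local background as the authors' peak caller gave it, had a median of 5.15 over the strongest peaks of the 39 bound genes, beside 5.13 over all bound protein-coding genes, and both sets had a median of 15 fragments at the summit. The strongest peak of each bound member held between 11 and 28 fragments. The 95% exact Poisson intervals of 32 of the 39 genes contained the member median. Genes were not tested against each other in pairs, so the order of strength is a description only. At 6 genes, among them Fbxw7, Cul4a, Ube2j1, Ube2f and Ube2m, the whole interval lay above the median, and at 1 gene, Fbxl20, it lay below. The deposited q-values of the member peaks ranged from 4.65e-19 to 0.0289.

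**Figure D2:**
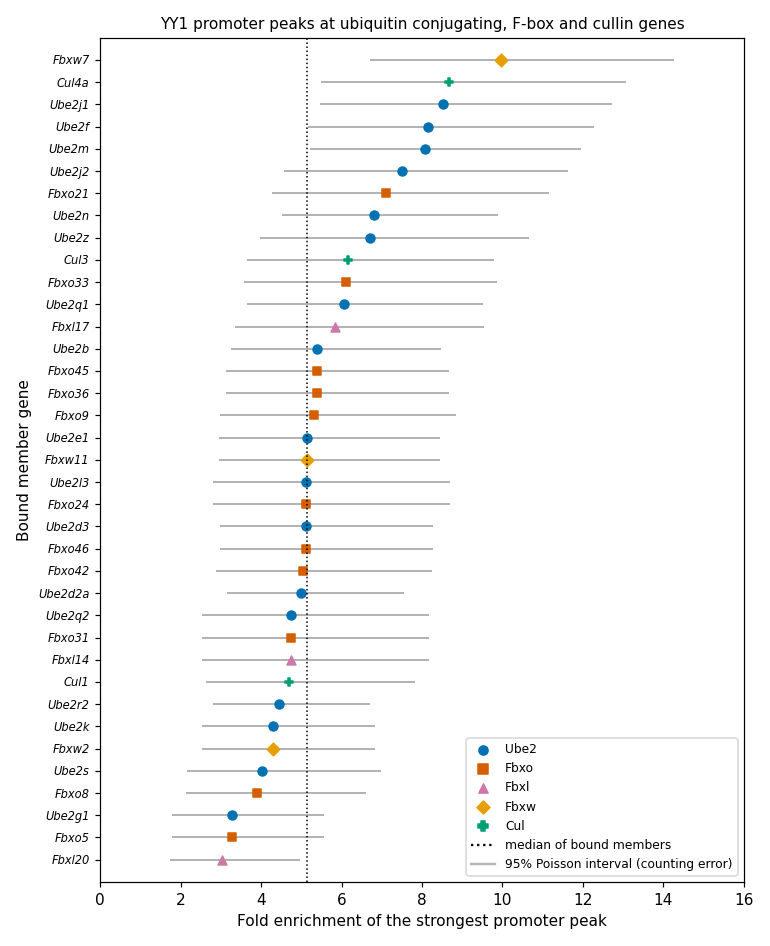
Fold enrichment of the strongest promoter peak (x axis) is plotted for 37 of the 39 bound genes (y axis), with grey lines for 95% exact Poisson intervals of the fragments at the summit and a dotted line at the member median of 5.15. Fbxw7 (9.96) stands at the top, Fbxl20 (3.03) at the bottom, and most intervals cross the dotted line.

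Both E2 enzymes for the ubiquitin-like protein NEDD8, which switches cullins on, were among the 6 strongest members. Ube2f (chr1:91250304-91290337, plus strand) had 21 fragments and 8.15-fold enrichment (5.19 to 12.3), 45 bp downstream of its start. Ube2m (chr7:13035120-13038275, minus strand) had 23 fragments and 8.07-fold enrichment (5.24 to 11.9), 240 bp downstream. Ube2l6, the E2 enzyme for ISG15, had a CpG-poor start and no promoter peak, and its nearest summit lay 83447 bp away.

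Among the E2 enzymes that transfer ubiquitin itself, 15 of 26 were bound (57.7%, 36.9 to 76.6), with a median fold of 5.13, beside 18.8% of all protein-coding genes and 33.6% of CpG-rich ones. This list leaves out Ube2cbp, Ube2dnl1, Ube2dnl2, Ube2ql1 and Ube2u, which were all unbound. The strongest was Ube2j1 (chr4:33031416-33052363, plus strand), whose product sits in the membrane of the endoplasmic reticulum and serves the degradation of misfolded proteins. It had 22 fragments and 8.52-fold enrichment (5.48 to 12.7), with the summit in its 5′ UTR exon, 54 bp from the start. Its relative at the same membrane, Ube2j2 (chr4:155943831-155959604, plus strand), had 18 fragments and 7.49-fold enrichment (4.60 to 11.6), 12 bp upstream of the start, beside the AAGATGGC shown above. The intervals of both genes overlap.

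Ube2n (chr10:95515145-95545657, plus strand) encodes UBC13, which builds K63-linked chains with the inactive variants encoded by Ube2v1 and Ube2v2. The summit shown above held 26 fragments over a higher background of 2.96, giving 6.81-fold enrichment (4.54 to 9.86), 146 bp upstream of the start. Neither partner was bound: the nearest summits lay 56883 bp from Ube2v1 and 292765 bp from Ube2v2. Ube2z (6.70-fold, 16 fragments), the E2 enzyme that works with the alternative E1 enzyme UBA6, had its summit in a coding exon 188 bp downstream of the start. Ube2b (5.40-fold, 17 fragments) encodes RAD6B, which acts in histone H2B and PCNA ubiquitination. Its summit lay inside the annotated gene, 122 bp upstream of the nearest start. The X-linked paralogue Ube2a had no promoter peak.

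The widely used E2 gene Ube2d3 had 3 promoter peaks. The strongest reached 5.12-fold with 15 fragments at 33 bp upstream of a start, and the others reached 4.16-fold 163 bp upstream and 3.84-fold 365 bp downstream of their nearest starts. Ube2l3, the E2 enzyme of HECT and RBR ligases, had 5.13-fold enrichment from 12 fragments, 11 bp from a start. Ube2s and Ube2c serve the anaphase promoting complex, the first extending and the second starting its ubiquitin chains. Ube2s was bound at 4.03-fold with 11 fragments, 308 bp downstream of its start, while the nearest summit to Ube2c lay 16241 bp away. Ube2q2 (4.73-fold, 11 fragments) and Ube2k (4.29-fold, 16 fragments) were weaker sites that carry AAAATGGC.

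Some related E2 genes, named after their values were seen, are given here without a count over all related pairs. Ube2d2a (5.00-fold, 21 fragments) and Ube2d3 had promoter peaks, and Ube2d1 and Ube2d2b had none. Ube2e1 (5.15-fold) and Ube2g1 (3.28-fold) were bound, and Ube2e2, Ube2e3 and Ube2g2 were not. Both Ube2q genes were bound, Ube2q1 at 6.05-fold and Ube2q2 at 4.73-fold. A missing peak at this depth does not show that YY1 was absent, since weaker sites may lie under the limit of the peak caller.

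Among the F-box genes, Fbxw7 (ENSMUSG00000028086, chr3:84815268-84979198, plus strand) had the strongest peak. It encodes the receptor for cyclin E, MYC and NOTCH. Its summit, shown above, held 28 fragments (18.6 to 40.5), the most of any member, and 9.96-fold enrichment (6.73 to 14.2). It lay 692 bp upstream of the nearest start. The other bound Fbxw genes were Fbxw11 (5.15-fold, 14 fragments), encoding the β-TrCP2 receptor for β-catenin and IκB, with the summit 2 bp downstream of a start, and Fbxw2 (4.29-fold, 16 fragments), 41 bp upstream.

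The Fbxw count holds a run of related genes. On chromosome 9, 14 Fbxw genes (Fbxw13 to Fbxw16, Fbxw18 to Fbxw22 and Fbxw24 to Fbxw28) lie close to each other, and 0 of 14 were bound (upper limit 23.2%). All 14 have CpG-poor starts, a class in which 1.6% of protein-coding genes were bound. Of the 31-base stretches around their starts, a median of 62.3% (15.2 to 70.3) occur once in the genome, compared with 99.4% (84.4 to 100) at bound members and 98.5% (68.6 to 100) at the 69 other unbound members. Reads from repeated stretches cannot be placed with certainty, and the part of repeated sequence in the lack of peaks was not tested. Without this run 39 of 108 members were bound (36.1%). A shorter run of Fbxo2, Fbxo6 and Fbxo44 on chromosome 4 had 0 of 3 bound.

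The 5 strongest Fbxo peaks lay at Fbxo21, Fbxo33, Fbxo45, Fbxo36 and Fbxo9. Fbxo21 (chr5:117976730-118010201, plus strand) had 17 fragments and 7.10-fold enrichment (4.30 to 11.1) in a coding exon, 230 bp downstream of the start. Fbxo33 had a pair of promoter peaks, at 6.12-fold 369 bp downstream and at 4.45-fold 260 bp upstream. Fbxo45, which forms an atypical ligase without CUL1, and Fbxo36 had the same fold of 5.38 from 15 fragments, 17 and 265 bp upstream. Fbxo9 had 5.31-fold enrichment from 13 fragments. Fbxo42 (5.04-fold, 14 fragments) had its summit 87 bp downstream of the start beside the AAGATGGC shown above. Fbxo5, which encodes EMI1, the inhibitor of the anaphase promoting complex, was among the weakest, at 3.28-fold from 12 fragments, with a q-value of 0.0250.

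Of F-box genes studied in muscle wasting, Fbxo21 above and Fbxo31 (4.73-fold, 11 fragments) had promoter peaks, and Fbxo32, Fbxo30 and Fbxo40 had none. Fbxo32 encodes atrogin-1, a ligase that is raised in muscle wasting, and its nearest summit lay 79734 bp away. The nearest summits lay 61888 bp from Fbxo30, which encodes MUSA1, and 104109 bp from Fbxo40, which encodes a muscle-specific receptor. Of Fbxo32, Fbxo30 and Fbxo40, only Fbxo40 had a CpG-poor start. Fbxl22, which encodes a receptor located at sarcomeres and has a CpG-poor start, had a summit in a coding exon 2801 bp downstream of its start, at 4.03-fold with 15 fragments.

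The Fbxl group had 4 bound members. Fbxl17 had a pair of promoter peaks, at 5.83-fold 535 bp upstream and 3.71-fold 116 bp downstream. Fbxl14 also had a pair, nearly equal in strength, at 4.73-fold 334 bp downstream and 4.70-fold 363 bp upstream. Fbxl20 had the lowest fold of all, 3.03 (1.75 to 4.95), from 14 fragments over a background of 3.95. Fbxl5, encoding the iron-sensing receptor of IRP2, was far from any peak, at 405187 bp, and so was Fbxl21, at 180519 bp.

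Of the cullins, Cul4a, Cul3 and Cul1 were bound. Cul1 is the scaffold of the F-box receptors, Cul3 that of BTB-domain receptors and Cul4a that of DDB1-linked receptors. Cul4a (chr8:13105621-13147940, plus strand) had 21 fragments and 8.68-fold enrichment (5.52 to 13.1), 755 bp upstream of its start, in the widest member peak (1073 bp). Cul3 (chr1:80264923-80340480, minus strand) had 16 fragments and 6.15-fold enrichment (3.67 to 9.77), in an intron 278 bp downstream of its nearest start. Cul1 (chr6:47453398-47526139, plus strand) had 13 fragments and 4.70-fold enrichment (2.66 to 7.81), 210 bp downstream of an alternative start. The 3 intervals overlap.

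The unbound cullins were Cul2, Cul4b, Cul5, Cul7 and Cul9. The nearest summits lay 45492 bp from Cul2, which pairs with VHL, and 419331 bp from Cul5, which pairs with SOCS-box proteins. They were closer for Cul7 (4246 bp) and Cul9 (9354 bp), a pair of related large cullins, of which Cul7 had a CpG-poor start. Cul7 missed the CpG-rich class narrowly, with a CpG ratio of 0.599 against the limit of 0.6. Cul4a and its X-linked paralogue Cul4b, which was also classed as CpG-poor, thus had different calls. Cul4b too lay near the limits, with a CpG ratio of 0.602 and 47.9% G and C at its start of highest ratio.

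Since a bound gene has a summit within 1000 bp of a start, positions are given as a description within that window. Over the 39 bound members the strongest summit lay at a median of 144 bp from the nearest start, beside 107 bp over all bound protein-coding genes, and 16 (41.0%) were within 100 bp, beside 47.9%. The Ube2 summits had a median of 53 bp with 11 of 18 within 100 bp, and the F-box summits of the 3 families together a median of 229 bp with 5 of 18 within 100 bp, although the 3 Fbxw summits alone had a median of 41 bp. No test between these groups was made. Summits lay upstream of the start at 21 genes, downstream at 17 (43.6%, beside 48.7% of all bound protein-coding genes) and on it at 1. They fell upstream of the annotated gene at 15 genes, in a 5′ UTR exon at 11 and in a coding exon at 5. At 7 genes they lay inside the annotated gene but in no exon, and at Fbxo9 in an exon outside the coding part. Not all of these 7 are introns of a transcript used here, since the Fbxl20 summit lay 144 bp upstream of its only start. In 3 genes, Cul4a, Fbxw7 and Fbxl17, the summit was over 500 bp from the start. The farthest summit inside the 1000 bp window was that of Cul4a at 755 bp, and the nearest outside was that of Fbxl22 at 2801 bp.

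**Figure D3:**
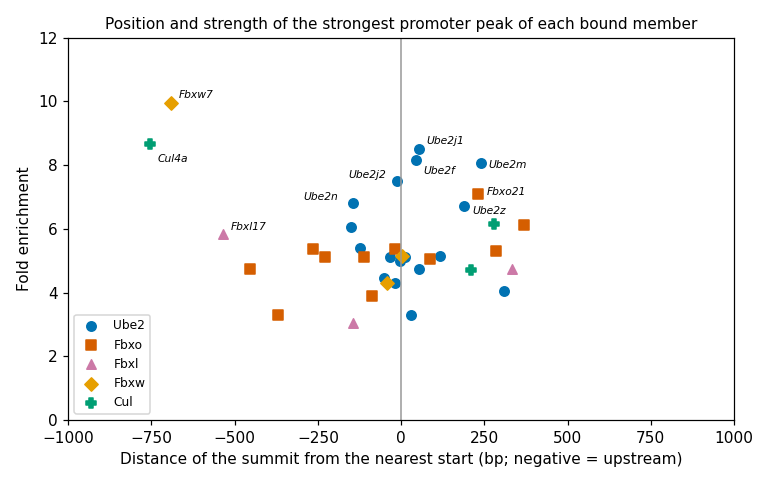
Each point is 1 of 37 of the 39 bound genes, with the distance of its strongest summit from the nearest start (x axis, bp, negative upstream) against fold enrichment (y axis), and colour and shape give the family. Ube2 points cluster near 0, while Fbxw7 (692 bp upstream) and Cul4a (755 bp upstream) are strong and far from the start.

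Of the 83 unbound members, 60 had no summit within 50 kb, and the median distance to the nearest summit was 104 kb. Within 5000 bp, 4 had a summit: Fbxl22, Ube2h, Cul7 and Fbxo16. For Fbxl22 and Ube2h it lay inside the gene. Ube2h, an E2 enzyme of the CTLH ligase, had a 5.15-fold peak with 13 fragments in an intron, 3961 bp from its nearest start.

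Some promoters are shared. At 6 of the 39 bound members (15.4%) the summit also lay within 1000 bp of a start of another protein-coding gene, against 25.6% of all bound protein-coding genes. They were Cul4a, Fbxo24, Fbxo36, Fbxo45, Fbxo8 and Fbxo9, and no Ube2 gene was among them. In each case the partner lay on the opposite strand. The partner's start was nearer to the summit at Cul4a, where Pcid2 started 593 bp away, and at Fbxo24, where Lrch4 started 8 bp away. Fbxo36 and Trip12, itself a ubiquitin ligase gene of the HECT class, started 265 and 272 bp from the same summit. A peak between opposite starts cannot be given to 1 of the genes.

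Other promoter words were counted in the same windows, within 100 bp of the summit on both strands, by a list chosen after the data were seen. CCGGAAG, a word of ETS factors, was found at 11 of the 39 members (28.2%) and at 14.7% of all bound protein-coding genes. GGGCGG, the GC box, was found at 24 members (61.5%) and 64.7% of all bound genes, and within the members at 15 of 18 Ube2 and 7 of 18 F-box genes. CCAAT was found at 4 members (10.3%, beside 17.2%), GCATGCGC, a word of NRF1, at 2 (5.13%, beside 5.78%), and TGACGTCA at 0 (beside 2.45%). None of these words contains AANATGGC, and a match says nothing about which factor was bound.

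For promoters regardless of peaks, RefSeq sequences of GRCm38.p6 from 250 bases before to 50 after the start were matched by symbol for 95 of the 122 members. AANATGGC was present in 13 of their 129 promoters (10.1%) and in 6.05% of all RefSeq promoters (1988 of 32851). By gene, 13 of 95 members (13.7%) held it, beside 6.96% of the 27025 genes in the RefSeq table, and these were 7 of 34 bound and 6 of 61 unbound members.

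The other genes of the pathway, from lists of textbook members, had promoter peaks at 49 of 98 genes (39.7% to 60.3% as interval), beside 18.8% of all protein-coding genes and 33.6% of CpG-rich ones. All 49 had CpG-rich starts. The peaks had a median fold of 5.52 and a median distance of 82 bp. At the head of the cascade, 5 of 9 E1 genes were bound, led by Sae1, a subunit of the SUMO E1, at 5.70-fold. Among the core partners of cullins, 4 of 6 were bound, led by the CUL4 adaptor gene Ddb1 (6.05-fold) and the RING gene Rnf7 (5.50-fold). Of the neddylation and exchange genes 4 of 8 were bound, led by Dcun1d2 (6.87-fold) and Cand1 (6.31-fold), and of the COP9 signalosome, which removes NEDD8 from cullins, 3 of 9, led by Cops7a (5.92-fold) and Cops2 (5.88-fold).

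The counts of the following lists are to be read against 18.8% of all protein-coding genes and 33.6% of CpG-rich ones. Among the ligases of other classes, 11 of 19 HECT genes were bound (57.9%, 33.5 to 79.7), led by Nedd4l at 9.86-fold and Ube3b at 6.70-fold, and 9 of 16 genes of the anaphase promoting complex, led by Anapc10 and Cdc16, both at 7.49-fold. Of the BTB adaptors of CUL3, 7 of 14 were bound, led by Kctd5 at 8.68-fold and Klhl9 at 7.49-fold. F-box genes of other symbols had 1 of 5 bound, Kdm2b at 5.52-fold. Ubiquitin ligases known from muscle had 2 of 8 bound, Traf6 and Cblb, both at the low fold of 3.53. In this list Trim63, Trim54, Trim55 and Asb2 had CpG-poor starts, as had Klhl13, Klhl40 and Klhl41 among the BTB adaptors. For these lists the 33.6% is therefore not a share over like starts. The count of 49 of 98 also holds a small list that is not described or plotted here. The lists are small and their intervals wide, and no test between the lists and the members was made.

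**Figure D4:**
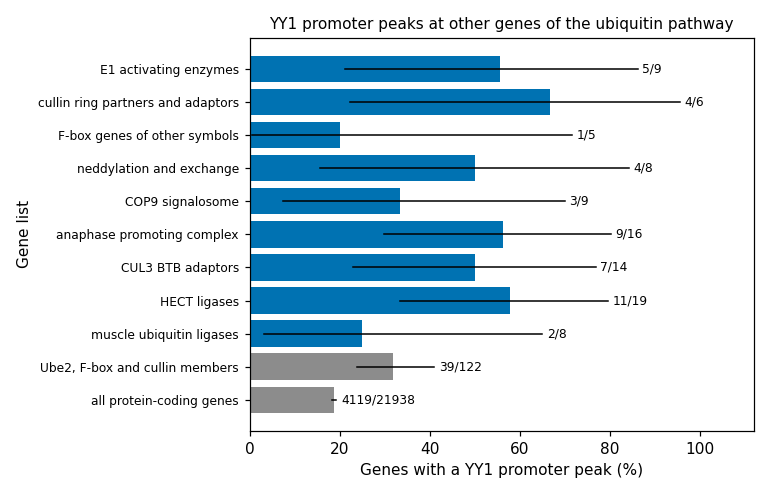
Bars give the share of genes with a YY1 promoter peak (x axis, percent) in 9 lists of the ubiquitin pathway (y axis, blue) and, in grey, for the 122 members and all protein-coding genes, with 95% exact binomial intervals as lines and bound over total genes as labels. Among the lists plotted, shares run from 1 of 5 F-box genes of other symbols to 4 of 6 partners and adaptors of cullins, with the members at 39 of 122.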

How the data were processed

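YY1 binding was measured in 1 ChIP-seq library of MuSCs. Per the labels and methods, the authors mapped reads to mm10 (GRCm38) with Bowtie2, discarded redundant reads and ran MACS2 against the background library at a p-value limit of 0.0001, and versions were not given in the sources used here. The deposited fold enrichment is a ratio of fragments at the summit to local background, with 1 added to each, and the deposited −log10 p-values and q-values and the summit offset (a position in bp) come from the same program. They describe counting chance in 1 pair of libraries. Deeper sequencing would let weaker sites pass the same limit.

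Fragments at each summit and the local background were recovered from fold and p-value (misfit under 0.001), and the depth, 13357713 fragments, from the most frequent background. Exact Poisson intervals take the background as fixed. Genes came from GENCODE M21 basic (GRCm38) without 13 mitochondrial genes. No test between groups was possible. The members and lists were chosen with earlier results of these data known.

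Named were all cullins, the 5 strongest bound genes of each other family, bound genes with AANATGGC or a summit over 500 bp from the start, unbound genes with a summit inside them, textbook and muscle cases, and the 2 strongest genes of each pathway list. Others were chosen after their values were seen, and a few genes that enter the counts are not reported here. Alternatives were other windows, limits, starts and motif forms. Those on base composition and on the Fbxw run were added after the data were seen. Gene placement, motif search and fragment recovery were tested on simulated data. Tools were matplotlib 3.10.9, pysam 0.24.0, scipy 1.17.1, pandas 2.3.3 and numpy 2.4.6 in Python 3.11.15.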

Additional observations from a re-analysis of the deposited data

How the results depend on the processing

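The count of 39 bound members was 37 with a window of 500 bp, where Cul4a and Fbxw7 were lost, and 39 with 2000 bp or any overlap of the peak. It was 36 with q under 0.01, 35 with gene-level starts only, 33 of 116 without shared summits, 31 from 1000 bp upstream to 100 bp downstream, and 27 with at least 5-fold enrichment. The share over all protein-coding genes was 17.7% with 500 bp, 19.3% with 2000 bp, 17.4% both with q under 0.01 and with gene-level starts, 14.6% with the upstream window and 11.1% with at least 5-fold enrichment. The median fold stayed between 5.13 and 5.34 and the median distance between 144 and 156 bp. The count of 5 genes with the word was 4 within 50 bp and 3 for AAGATGGC only, and rose to 11 over whole peaks and to 16 for ATGGC alone, both of which search more sequence or a shorter word. The count of 6 shared summits was 4 with 500 bp and 12 with genes of any type as partners. No background share is given for these 4 and 12, nor for the word counts other than ATGGC alone. The same holds for any overlap of the peak and for 33 of 116. These counts therefore cannot be read against the other protein-coding genes. The share of 32.0% was 36.1% without the Fbxw run and 41.1% with CpG-rich members only. Stricter limits for a CpG-rich start gave 45.7% of members (beside 40.3% of protein-coding genes), and a 500 bp window gave 42.2% (beside 36.2%). No paired analysis was possible because the labels give a single library for each antibody, and none could be left out. The depth limits what can be said of unbound genes: a weak site is not separated from no site.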
